A study of Homo sapiens with 6 samples.

Results

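Long noncoding RNAs (lncRNAs) are transcripts that are not known to be translated, and 8 of them were followed here in HCT116 cells: MALAT1, its antisense partner TALAM1, NEAT1, NORAD, KCNQ1OT1, H19, PVT1 and OIP5-AS1. These members were chosen by their abundance, so their levels are a description and were not tested. All 8 were among the 28278 gene symbols in the count tables, which hold 3318 lncRNA genes of GENCODE release 29, and all 8 passed the filter on low counts. Symbols of 7 members matched GENCODE release 29 (GRCh38), and the position of TALAM1 came from RefSeq.

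HCT116 is an established human colon carcinoma line, described in the labels as poorly differentiated. The shControl group (n = 3) carried a scrambled shRNA and the shTRIM21 group (n = 3) an shRNA against TRIM21, a cytosolic antibody receptor and E3 ubiquitin ligase, and both shRNAs came by lentivirus. All cells were kept in puromycin at 5 µg/ml from 36 h after infection for 2 to 3 weeks and are labelled day 21. The shControl cells are labelled WT but carry the vector and were selected in the same way, and the labels do not say how many shRNA sequences were used or whether the lines are clones. The libraries are called biological replicates with no statement of separate cultures. The p-values below therefore cover the spread between these libraries alone, and that spread may be technical.

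MALAT1 is retained in nuclear speckles, where splicing factors gather, and NEAT1 is the RNA scaffold of paraspeckles, nuclear bodies built on it together with proteins such as NONO and SFPQ. Neither long form ends in a conventional poly(A) tail: RNase P cuts upstream of a tRNA-like structure, and the new end is held in a triple helix of U-rich and A-rich stretches. NORAD is a cytoplasmic RNA that binds the PUMILIO proteins, which repress mRNAs, and OIP5-AS1 (also called Cyrano) directs the decay of the microRNA miR-7. KCNQ1OT1 and H19 are imprinted RNAs of the same chromosome arm, and PVT1 is a spliced RNA known from amplified regions of tumours.

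The 3′ ends of MALAT1 and NEAT1 are shown because they are what makes these RNAs stable without a poly(A) tail. Sequences are from the GENCODE release 29 transcripts (GRCh38), written as DNA letters, and capitals mark runs of at least 4 A or T. The MALAT1 stretch is chr11:65506017-65506116, plus strand, the 100 bases just upstream of the tRNA-like mascRNA, and the NEAT1 stretch is chr11:65445391-65445540, plus strand, the last 150 bases of the long transcript NEAT1-202. The mascRNA is chr11:65506117-65506173, plus strand, and holds no such run.
MALAT1 3′ end: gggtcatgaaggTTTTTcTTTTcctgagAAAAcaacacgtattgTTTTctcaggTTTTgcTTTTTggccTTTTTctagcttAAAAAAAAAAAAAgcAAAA
NEAT1 3′ end: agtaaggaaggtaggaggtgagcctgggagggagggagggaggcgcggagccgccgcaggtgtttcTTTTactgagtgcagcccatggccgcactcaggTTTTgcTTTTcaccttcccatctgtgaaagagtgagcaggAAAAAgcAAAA
mascRNA: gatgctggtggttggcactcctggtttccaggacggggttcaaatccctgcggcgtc

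NORAD carries the PUMILIO recognition element, searched here as TGTANATA on the transcript strand only. Its single transcript of 5339 bases held 15 such elements, 10 of them TGTATATA, with the first starting at base 761 and the last at base 4599. Of 3186 windows of the same length, taken from the start of the longest transcript of other tested genes, 38.6% held at least 1 element, and no window held more than 9. MALAT1 held 0 elements over its 8708 bases, a length at which 56.0% of 812 windows held at least 1. OIP5-AS1 held 1 over 8829 bases, and NEAT1 held 6 over 22743 bases, a length that only 13 windows reached. A match is a string of letters and not a binding site. The following 6 windows of 24 bases show the elements in capitals, on the minus strand of chromosome 20, and the recurring letters around them.
Element 1, chr20:36050185-36050208: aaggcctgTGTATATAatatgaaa
Element 2, chr20:36049806-36049829: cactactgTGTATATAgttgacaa
Element 3, chr20:36049705-36049728: tcacatttTGTAAATAcctttttg
Element 6, chr20:36049121-36049144: taccacttTGTAAATAtctttttg
Element 11, chr20:36047974-36047997: ccctactgTGTATATAgcggacaa
Element 14, chr20:36047353-36047376: tgctactgTGTATATAatggaaaa

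**Figure D1:**
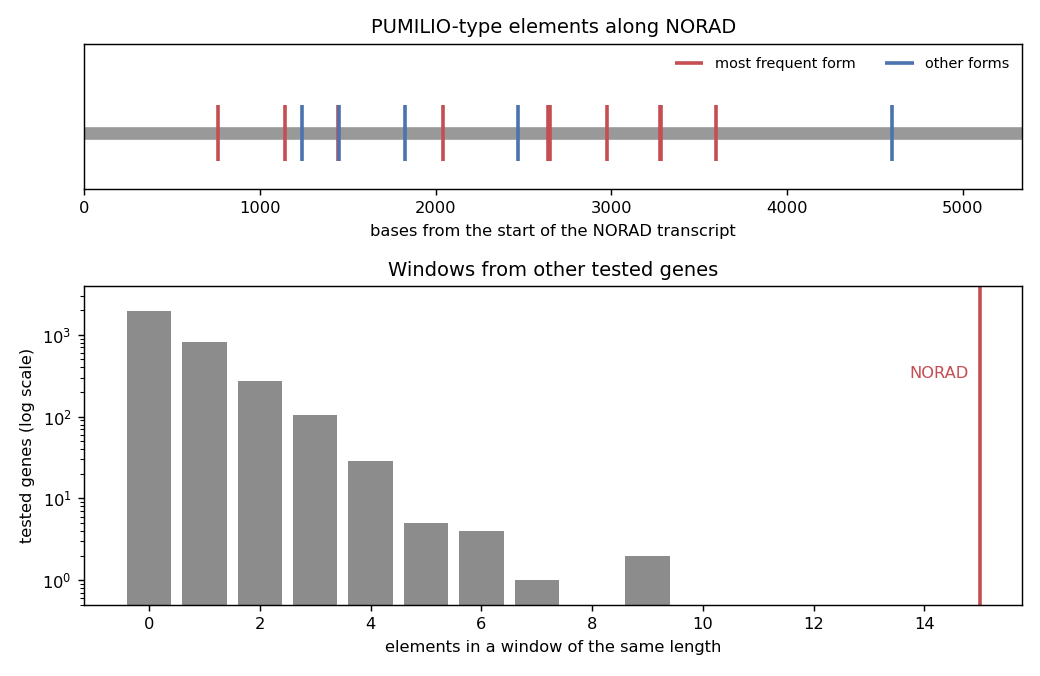
PUMILIO-type elements in NORAD. The upper panel marks each of the 15 elements along the transcript (x axis, bases from its start), with colour separating TGTATATA from other forms. In the lower panel, bars count other tested genes (log scale) by elements in a window of 5339 bases, and the red line marks NORAD, to the right of every window.

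OIP5-AS1 is shown with miR-7, the microRNA that it is known to bind through a long paired site. The site is chr15:41300572-41300600, plus strand, in the longest transcript OIP5-AS1-201 (GENCODE release 29), and capitals mark runs that pair to the microRNA. These are the 7-base match to the seed (bases 2 to 8 of the microRNA) and a further run of 14 bases, and the transcript held 3 seed matches in all. The mature hsa-miR-7-5p is from RefSeq, with its seed in capitals. No level of the mature microRNA was analysed here.
OIP5-AS1 site: agAACAACAAAATCACcaatGTCTTCCat
hsa-miR-7-5p: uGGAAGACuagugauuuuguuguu

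The libraries held 22656160 to 27123657 counts, of which 37 ribosomal RNA genes took 6.69% to 15.2%, lowest in shControl replicate 3. That library stood apart from the other 2 shControl libraries (chi-square per degree of freedom 77.8 and 57.9, against 5.89 between those 2), and was nearer to shTRIM21 replicate 3 (33.0). These distances include the ribosomal RNA genes, so the ribosomal share enters them, and distances without those genes were not computed. In the knockdown group shTRIM21 replicate 3 was the farther one (37.5 and 18.4, against 10.9 between the other 2). Where leaving out either library changed a member's call or direction, the value without it is given. TRIM21 itself stood at 13.1 ± 2.33 CPM (counts relative to a library size scaled by edgeR's TMM factors) in shControl and 7.90 ± 1.10 in shTRIM21 (SD, n = 3 each), a log2 fold change of -0.73 (SE 0.17), with an adjusted p of 0.0124. Adjusted p-values are from edgeR's quasi-likelihood test, adjusted by Benjamini-Hochberg over all tested genes. Leaving out shTRIM21 replicate 3 gave 0.0734 for TRIM21, and leaving out replicate 3 in each group gave 0.114. Among epithelial markers KRT18 stood at 74.5 CPM, KRT8 at 40.4, VIL1 at 32.7 and EPCAM at 18.8, while CDH1 stood at 4.10 and KRT19 at 1.17, which is low for markers of an epithelial line. The identity of the line was not checked beyond these markers. The 9 markers of leukocytes, fibroblasts and endothelium did not pass 0.258 CPM in any library, and COL3A1 and CDH5 were at 0. In bulk samples, fewer cells of a type and less RNA per cell cannot be told apart.

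Levels between genes were compared per length, as CPM per kb of the longest annotated transcript, averaged over 6 libraries. TALAM1 stood at 208 CPM per kb (range over libraries 178 to 252) and MALAT1 at 203 (174 to 244), and these ranges overlapped. NORAD followed at 126 (108 to 145). OIP5-AS1 stood at 31.3 (23.2 to 36.8), NEAT1 at 14.4 (13.5 to 16.7) and PVT1 at 9.65 (7.15 to 11.7). H19 stood at 1.59 (1.26 to 2.34) and KCNQ1OT1 at 0.484 (0.407 to 0.606). No ranges of neighbours in this order overlapped other than those of MALAT1 and TALAM1. With the union of all annotated exons as length, OIP5-AS1 fell to 21.8 and PVT1 to 2.98 CPM per kb, with the order of the 8 unchanged. For NEAT1 both lengths (22743 and 22767 bases) are those of the long form, while its counts also hold the short form. Its place in this order is therefore not settled.

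The word abundant therefore held for some members and not for others in these cells. By CPM, MALAT1 ranked 33rd and TALAM1 36th of 14002 tested genes, NORAD ranked 120th, NEAT1 392nd and OIP5-AS1 519th. KCNQ1OT1 ranked 4875th, PVT1 8077th and H19 11119th, and per length KCNQ1OT1 was 12025th of 13191 genes with a known length.

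Knockdown of TRIM21 was compared with the control for each member. MALAT1, TALAM1, NORAD and OIP5-AS1 fell, to between 73.2% and 85.5% of control, and 0 of the 8 rose. NEAT1, KCNQ1OT1, PVT1 and H19 did not pass the test. So 4 of 8 members were called at an edgeR adjusted p of 0.05, where 9.08% of all 14002 tested genes were called (620 or 4.43% rose and 652 or 4.66% fell). The 2 groups did not overlap for 5 of 8 members, against 28.1% of all tested genes. At an unadjusted p under 0.05, 5 members were lower and 1 was higher, where 22.8% of all tested genes passed. DESeq2 and limma-voom each called 4 lower and 0 higher, where they called 11.6% and 8.56% of all genes. Leaving out shControl replicate 3 gave 5 members that fell, where 12.2% of all genes were called. Leaving out shTRIM21 replicate 2 or 3 gave 1, where 4.70% and 4.22% of all genes were called. MALAT1 and TALAM1 cannot be told apart, as described below, and with their counts summed the result was 3 of 7.

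The members that fell were among the deeply counted genes, which were called more often. Of 877 genes with a mean of at least 200 CPM, 20.2% were called, with 61 higher and 116 lower. The 5 members at that level were the 4 that fell and NEAT1. Among the 698 other lncRNA genes tested, 26 rose and 6 fell, which is 4.58%. That share is not matched for level, as 554 of these genes lay below a mean of 10 CPM, where 2.53% were called. At a mean of at least 10 CPM these were 144, of which 13 rose (9.03%) and 5 fell (3.47%). Of all 9305 tested genes at that level 12.1% were called, with 5.63% higher and 6.50% lower. The median log2 fold change was -0.28 over the 8 members, 0.05 over the other lncRNA genes and 0.01 over all tested genes. The members were selected with results known, so this is no evidence about lncRNAs as a class.

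**Figure D2:**
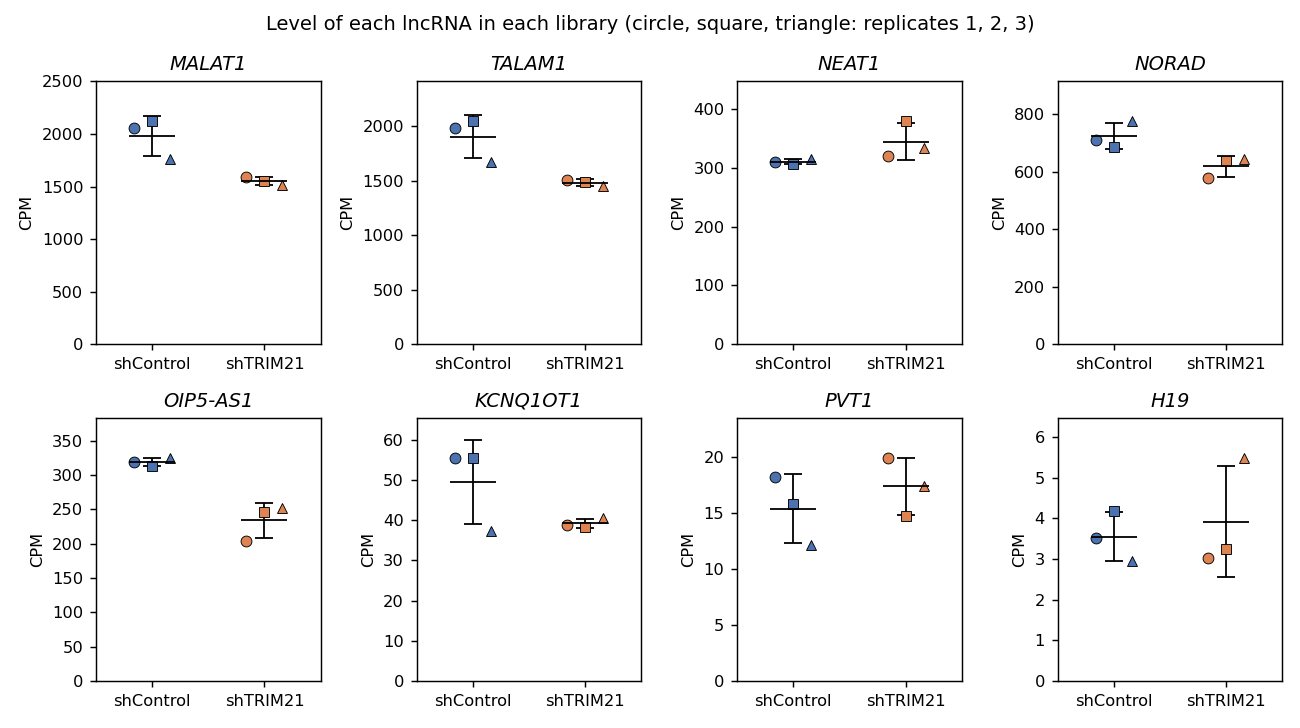
CPM (y axis, scaled by TMM) of each lncRNA in each of the 3 shControl and 3 shTRIM21 libraries, with the group mean and SD as lines. The groups are separate for MALAT1, TALAM1, NORAD and OIP5-AS1 (shTRIM21 lower) and for NEAT1 (shTRIM21 higher), and overlap for KCNQ1OT1, PVT1 and H19.

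MALAT1 (ENSG00000251562, chr11:65497688-65506516, plus strand, 17 annotated transcripts) was the most counted member. Its level was 2061, 2122 and 1764 CPM in shControl replicates 1, 2 and 3, and 1587, 1557 and 1513 CPM in shTRIM21. The 3 knockdown libraries were all below the lowest control, and shControl replicate 3 was the lowest of the controls. The means were 1983 ± 192 and 1552 ± 37.0 CPM (SD, n = 3 each), 78.3% of control. The log2 fold change was -0.35 (SE 0.08, 95% interval -0.52 to -0.19), with an adjusted p of 0.00923 by edgeR. The call was lost in 4 of the 6 fits that left out 1 library (adjusted p 0.0501 without shControl replicate 1, 0.0613 without shControl replicate 2, 0.0549 without shTRIM21 replicate 2 and 0.0731 without shTRIM21 replicate 3). Without shControl replicate 3 the log2 fold change was -0.42, with an adjusted p of 2.1e-05 by edgeR.

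TALAM1 (chr11:65499312-65507432 in RefSeq) is transcribed from the opposite strand of the MALAT1 locus and has been described as a partner in MALAT1 processing. Its counts were 94.9% to 96.3% of those of MALAT1 in every library, and its span overlaps 7205 bases of MALAT1, 81.6% of the MALAT1 span. The strand setting of the counting is not given in the sources used here, so reads of the pair cannot be told apart and the TALAM1 row is not a separate measurement. Its level was 1984, 2044 and 1675 CPM in shControl and 1508, 1486 and 1447 CPM in shTRIM21, with no overlap. The log2 fold change was -0.36 (SE 0.08), adjusted p 0.00862. The call was lost without shControl replicate 2 (0.0571), shTRIM21 replicate 2 (0.0513) or shTRIM21 replicate 3 (0.0682). The mascRNA has a row of its own, which held 0, 1 and 3 counts in shControl and 1, 5 and 3 in shTRIM21, too few to test.

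NEAT1 (ENSG00000245532, chr11:65422774-65445540, plus strand) lies upstream of MALAT1 on the same strand. Its level was 309.8, 307 and 314 CPM in shControl, and 319, 379 and 334 CPM in shTRIM21. Every shTRIM21 library lay above every shControl library, by little in replicate 1. The means were 310.3 ± 3.95 and 344 ± 31.3 CPM (SD, n = 3 each), with a log2 fold change of 0.15 (SE 0.07, 95% interval 0.0076 to 0.29) and an adjusted p of 0.193, which did not pass. Corrected for GC content and transcript length, the log2 fold change was 0.26 and passed (adjusted p 0.000874 by edgeR). The 8 annotated transcripts include the short and long forms, which share their first part, and the counts per symbol do not separate them.

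NORAD (ENSG00000260032, chr20:36045622-36050960, minus strand) is a single exon. Its level was 711, 688 and 776 CPM in shControl, and 577, 639 and 643 CPM in shTRIM21, with shControl replicate 3 the highest and no overlap. The means were 725 ± 45.8 and 619.5 ± 36.9 CPM (SD, n = 3 each), 85.5% of control. The log2 fold change was -0.23 (SE 0.07, 95% interval -0.37 to -0.086), with an adjusted p of 0.0406. This was the weakest of the calls: it was lost when shControl replicate 1 or any 1 shTRIM21 library was left out (adjusted p 0.0935 to 0.161), and under scaling by the total count alone (0.123).

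OIP5-AS1 (ENSG00000247556, chr15:41283990-41309737, plus strand) changed the most. Its level was 319.7, 313 and 325 CPM in shControl, and 204, 246 and 252 CPM in shTRIM21. The control libraries lay close together and every shTRIM21 library lay well below them. The means were 319 ± 5.80 and 234 ± 25.7 CPM (SD, n = 3 each), 73.2% of control. The log2 fold change was -0.45 (SE 0.07, 95% interval -0.60 to -0.30), with an adjusted p of 0.000579 by edgeR. It was the member that kept its call in each fit that left out 1 library, with log2 fold changes of -0.51 to -0.36. OIP5, a centromere protein gene on the opposite strand that overlaps its 3′ part by 470 bases, held 260, 313 and 358 counts in shControl and 351, 278 and 326 in shTRIM21 (log2 fold change 0.10, SE 0.14, adjusted p 0.728).

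**Figure D3:**
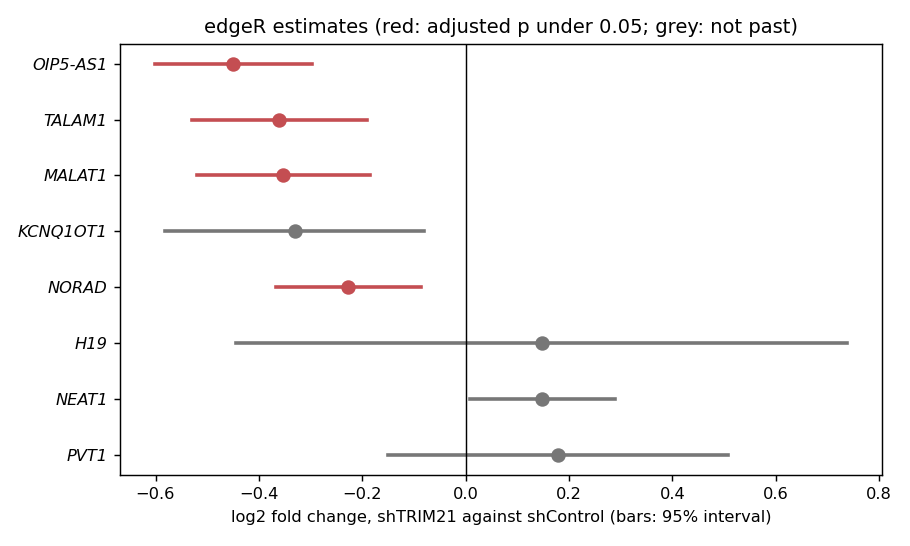
Log2 fold change of each lncRNA, shTRIM21 against shControl (x axis), as the edgeR estimate with its 95% interval. Red points passed an adjusted p of 0.05. OIP5-AS1 is farthest below 0 at -0.45, NEAT1 lies above 0 without passing, and the interval of H19 is the widest.

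KCNQ1OT1 (ENSG00000269821, chr11:2608328-2699994, minus strand) is an unspliced RNA of 91667 bases that lies inside KCNQ1, a potassium channel gene on the other strand, and silences neighbouring genes on the paternal chromosome. Its level was 55.5, 55.4 and 37.3 CPM in shControl, and 38.9, 38.3 and 40.5 CPM in shTRIM21. The groups overlapped, and shControl replicate 3 was the lowest of all 6 libraries. The log2 fold change was -0.33 (SE 0.12, 95% interval -0.58 to -0.080), adjusted p 0.0957. Without shControl replicate 3 it was -0.49, with an adjusted p of 0.000545 by edgeR. Corrected for GC content and length it was -0.17 (adjusted p 0.154). The library shControl replicate 3 was also the lowest of the controls for MALAT1 and had the lowest share of ribosomal RNA, and the part of either in the KCNQ1OT1 result was not tested. KCNQ1 itself held 43, 64 and 51 counts in shControl and 27, 31 and 76 in shTRIM21.

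H19 (ENSG00000130600, chr11:1995176-2001470, minus strand), an imprinted RNA transcribed from the maternal chromosome and the host of MIR675, was near the floor of the data with 72 to 142 counts a library. Its level was 3.518, 4.17 and 2.95 CPM in shControl, and 3.02, 3.23 and 5.49 CPM in shTRIM21. One library, shTRIM21 replicate 3, was high and the other libraries overlapped. The log2 fold change was 0.15 (SE 0.28, 95% interval -0.44 to 0.74, adjusted p 0.809), and without that library it was -0.18. The estimate without shControl replicate 3 was 0.04. MRPL23, a mitochondrial ribosomal protein gene whose RefSeq span covers H19, had a log2 fold change of 0.49 (SE 0.23, adjusted p 0.200).

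PVT1 (ENSG00000249859, chr8:127794533-128101253, plus strand) has 25 annotated transcripts and spans microRNA genes. Its level was 18.2, 15.9 and 12.1 CPM in shControl, and 19.9, 14.8 and 17.4 CPM in shTRIM21. The groups overlapped, with a log2 fold change of 0.18 (SE 0.16, 95% interval -0.15 to 0.51, adjusted p 0.547). The interval leaves room for a change in either direction, and without shControl replicate 3 the estimate was 0.04. TMEM75, which lies inside PVT1 on the other strand, had a log2 fold change of 0.24 (SE 0.34, adjusted p 0.727).

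Ratios of counts within a library do not depend on scaling between libraries, and were chosen for display after the values had been seen. NEAT1 stood at 15.0%, 14.4% and 17.8% of the MALAT1 count in shControl, and at 20.1%, 24.3% and 22.0% in shTRIM21. The groups were separate, with means of 15.8% ± 1.80 and 22.2% ± 2.12 (SD, n = 3 each). OIP5-AS1 stood at 103%, 102% and 103% of the NEAT1 count in shControl, and at 64.1%, 64.8% and 75.5% in shTRIM21. This was the widest separation, with nearly equal counts in every control library. Of the 6 pairs among MALAT1, NEAT1, NORAD and OIP5-AS1, 4 had groups that did not overlap: the 3 pairs with NEAT1, and OIP5-AS1 against NORAD (44.1% ± 1.98 and 37.7% ± 1.97). NORAD and OIP5-AS1 relative to MALAT1 overlapped between groups. With 3 libraries against 3 an exact two-sided permutation test cannot go below 0.1, which the 4 separate pairs reached (0.15 after Benjamini-Hochberg adjustment over 6 pairs). The pairs reuse 4 members whose changes are given above, so they are not independent of those changes. The share of separate pairs among all genes was not computed, while 28.1% of single tested genes had groups that did not overlap.

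**Figure D4:**
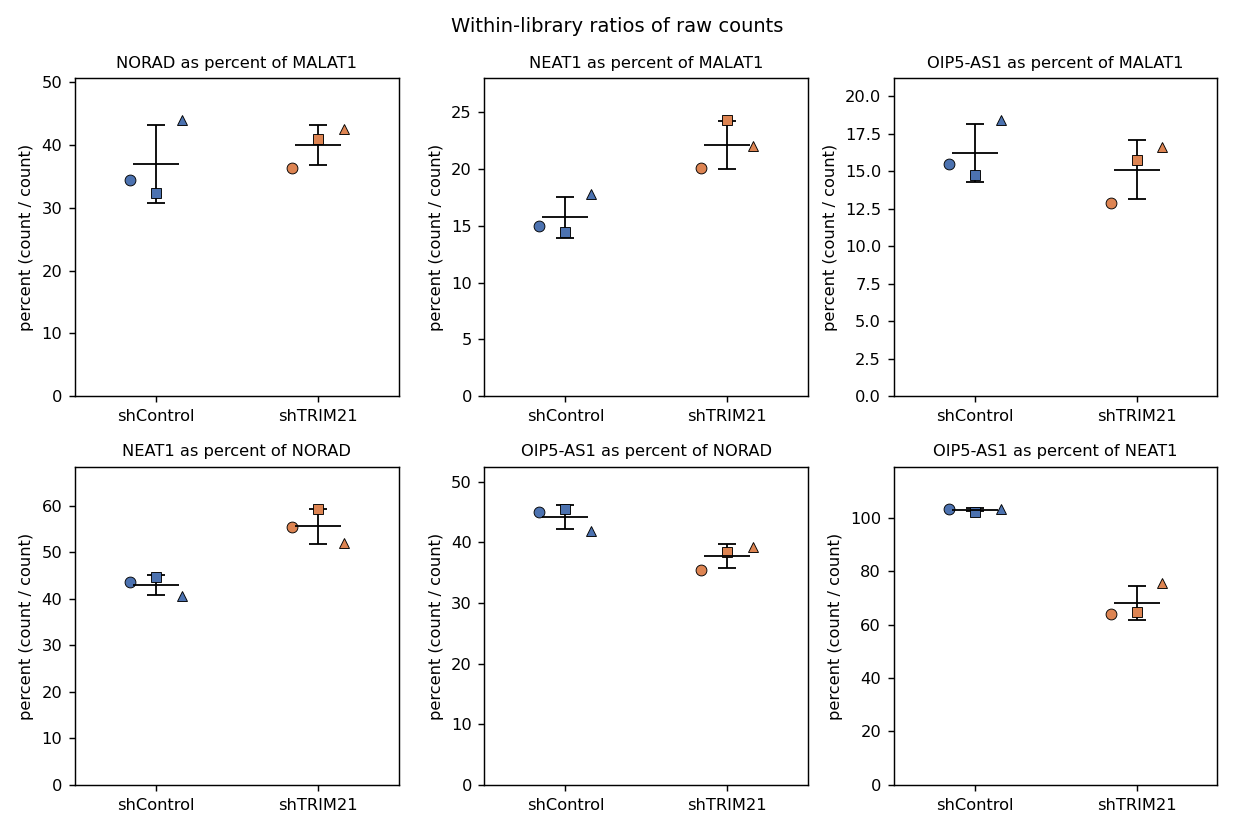
Count of 1 lncRNA as a percent of the count of another in the same library (y axis), for the 6 pairs, with points for the 3 libraries of each group and lines for the mean and SD. The pairs with NEAT1 are separate between groups, and both NORAD and OIP5-AS1 overlap when set against MALAT1.

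The proteins that work with these RNAs were read from lists. Of 19 tested paraspeckle proteins, the partners of NEAT1, 3 fell and 0 rose by edgeR, where 9.08% of all tested genes were called. Their median log2 fold change was 0.07 (all genes 0.01). The zinc finger protein gene ZNF24 went from 208 to 163 CPM (log2 fold change -0.35, SE 0.07, adjusted p 0.00334). RBMX, an RNA-binding protein, went from 428 ± 41.3 to 343 ± 16.6 CPM (-0.32, SE 0.07, adjusted p 0.00766). NUDT21, a cleavage factor that sets the choice of poly(A) site and with it the short form of NEAT1, went from 464 to 392 CPM (-0.25, SE 0.07, adjusted p 0.0254). The NUDT21 call was lost without shControl replicate 2 (0.0567), shTRIM21 replicate 1 (0.113) or shTRIM21 replicate 3 (0.0967). The core paraspeckle proteins did not pass, with -0.19 for SFPQ, 0.12 for NONO and 0.12 for PSPC1. Without shControl replicate 3 the same list gave 3 higher and 3 lower (12.2% of all genes called), and with the GC and length offset 4 higher and 5 lower (14.7% of all genes called). At an unadjusted p under 0.05, 3 were higher and 5 lower (22.8% of all genes), and DESeq2 and limma-voom each gave 0 higher and 3 lower.

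Of 15 nuclear speckle proteins, 1 fell by edgeR, where 9.08% of all tested genes were called. This was SRSF2, a splicing factor (352 to 299.8 CPM, log2 fold change -0.23, SE 0.06, adjusted p 0.0262). The list's median was -0.07 and 11 of 15 values were negative. SRRM2, a scaffold of speckles, stood at -0.07. Of 13 genes for the 3′ end processing of MALAT1 or for binding it, 0 passed by edgeR, DESeq2 or limma-voom. At an unadjusted p under 0.05, 1 was lower (22.8% of all genes passed), and the median of the 13 was -0.02. Among these the RNase P subunit POP1 had a log2 fold change of -0.09 and HNRNPC, which binds MALAT1, -0.01. The SRSF2 call was lost when any 1 library other than shControl replicate 3 was left out (adjusted p 0.0552 to 0.116). Among the speckle proteins 2 fell without shControl replicate 3, where 12.2% of all genes were called.

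Of 8 NORAD partners, 2 fell and 0 rose by edgeR, where 9.08% of all tested genes were called. They were RBMX, given above, and PUM2, one of the PUMILIO proteins. PUM2 went from 228 ± 7.61 to 190.3 ± 12.7 CPM (log2 fold change -0.26, SE 0.07, adjusted p 0.0185). At an unadjusted p under 0.05, 1 partner was higher and 3 lower (22.8% of all genes passed). DESeq2 and limma-voom each gave 0 higher and 2 lower (11.6% and 8.56% of all genes called). In the fit without shControl replicate 3, 1 was higher and 2 lower (12.2% of all genes called). The PUM2 call was lost without shControl replicate 1 (adjusted p 0.0809), shTRIM21 replicate 1 (0.0851) or shTRIM21 replicate 3 (0.0711). That of RBMX was lost without shTRIM21 replicate 3 (0.0630). For OIP5-AS1, H19 and PVT1, 9 RNA-binding partners were tested. Of these 0 passed by edgeR, DESeq2 or limma-voom, and 1 was higher and 1 lower at an unadjusted p under 0.05. ELAVL1, the RNA stabiliser HuR, stood at 0.01.

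Genes next to the members on the chromosome were read in the same way. Of all genes, edgeR called 9.08%, DESeq2 11.6% and limma-voom 8.56%, and 22.8% had an unadjusted p under 0.05 by edgeR. Near MALAT1 and NEAT1, 12 were tested and 0 passed by edgeR, DESeq2 or limma-voom. The median there was 0.17 with 2 negative values, and 2 were higher at an unadjusted p under 0.05. Near KCNQ1OT1, 7 were tested and 0 passed (median 0.19, 1 negative, 2 higher at an unadjusted p under 0.05), with CD81 at 0.24 (0.13 without shControl replicate 3). Near H19, CTSD, the lysosomal protease cathepsin D, rose from 45.2 ± 8.88 to 63.8 ± 5.91 CPM (log2 fold change 0.50, SE 0.12, adjusted p 0.0106). That call was lost without shTRIM21 replicate 1 (0.0613) or 3 (0.0541). Near PVT1, 6 were tested, and 1 fell and 0 rose by edgeR, 2 fell and 1 rose by DESeq2, and 1 fell and 1 rose by limma-voom. The transcription factor gene MYC had a log2 fold change of 0.19 (SE 0.06, adjusted p 0.0558) and was higher in every shTRIM21 library. MYC passed by DESeq2 (0.0193), limma-voom (0.0428), with the replicate block (0.0414) and without shControl replicate 3 (0.0362). It also passed under upper quartile scaling (0.0294) and with a filter of 1 CPM in 3 libraries (0.0478). Scaling by DESeq2's size-factor method (0.0693) or by total count (0.172) did not bring it past. It did not pass in the other fits that left out 1 library (0.0891 to 0.172). The lncRNA CCAT1 fell with a log2 fold change of -0.22 (SE 0.07, adjusted p 0.0474), and this was lost when any 1 library other than shControl replicate 3 was left out (0.0763 to 0.243), and under upper quartile (0.0614) or total count (0.0947) scaling. Near OIP5-AS1 0 of 8 passed and near NORAD 0 of 9, by edgeR, DESeq2 or limma-voom. At an unadjusted p under 0.05 there was 1 lower near OIP5-AS1 and 0 near NORAD.

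Among 48 other well-known lncRNAs that were tested, 1 rose and 1 fell (median log2 fold change 0.00), where 9.08% of all tested genes were called. DANCR, a spliced lncRNA that hosts small RNAs, rose from 43.7 ± 2.17 to 63.1 ± 4.50 CPM (log2 fold change 0.53, SE 0.08, adjusted p 0.000488 by edgeR). MIR4435-2HG fell from 56.9 ± 6.83 to 43.4 ± 1.87 CPM (-0.39, SE 0.09, adjusted p 0.0134). The MIR4435-2HG call was lost without shControl replicate 1 (0.0827), shControl replicate 2 (0.0554) or shTRIM21 replicate 1 (0.0608), and that of DANCR was kept in all 6 such fits. Without shControl replicate 3 the list gave 4 higher and 2 lower, where 12.2% of all genes were called.

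The genes whose pattern lay nearest to each member were found by the root mean square difference of log2 CPM centred on each gene's mean, over 6 libraries and 10646 candidate genes (10645 for H19 and OIP5-AS1). With so few libraries and so many candidates these are descriptions. Nearest to MALAT1 were MFSD9 (0.0258), CA12, a carbonic anhydrase (0.0290), and FAM53C (0.0372). Nearest to OIP5-AS1 were TMEM245 (0.0320), MTR, the methionine synthase (0.0354), and PDSS2 (0.0425). Nearest to NORAD were IDE, the insulin-degrading enzyme (0.0121), the nucleoporin gene NUP50 (0.0135) and the spindle checkpoint gene BUB3 (0.0145). Nearest to NEAT1 were DGKG (0.0193), KHDC4 (0.0239) and the centriole gene STIL (0.0271). Nearest to KCNQ1OT1 was another lncRNA, SNHG7 (0.0259). PVT1 lay nearest to ARRDC1 (0.0275), and H19 had no gene closer than EREG at 0.127.

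**Figure D5:**
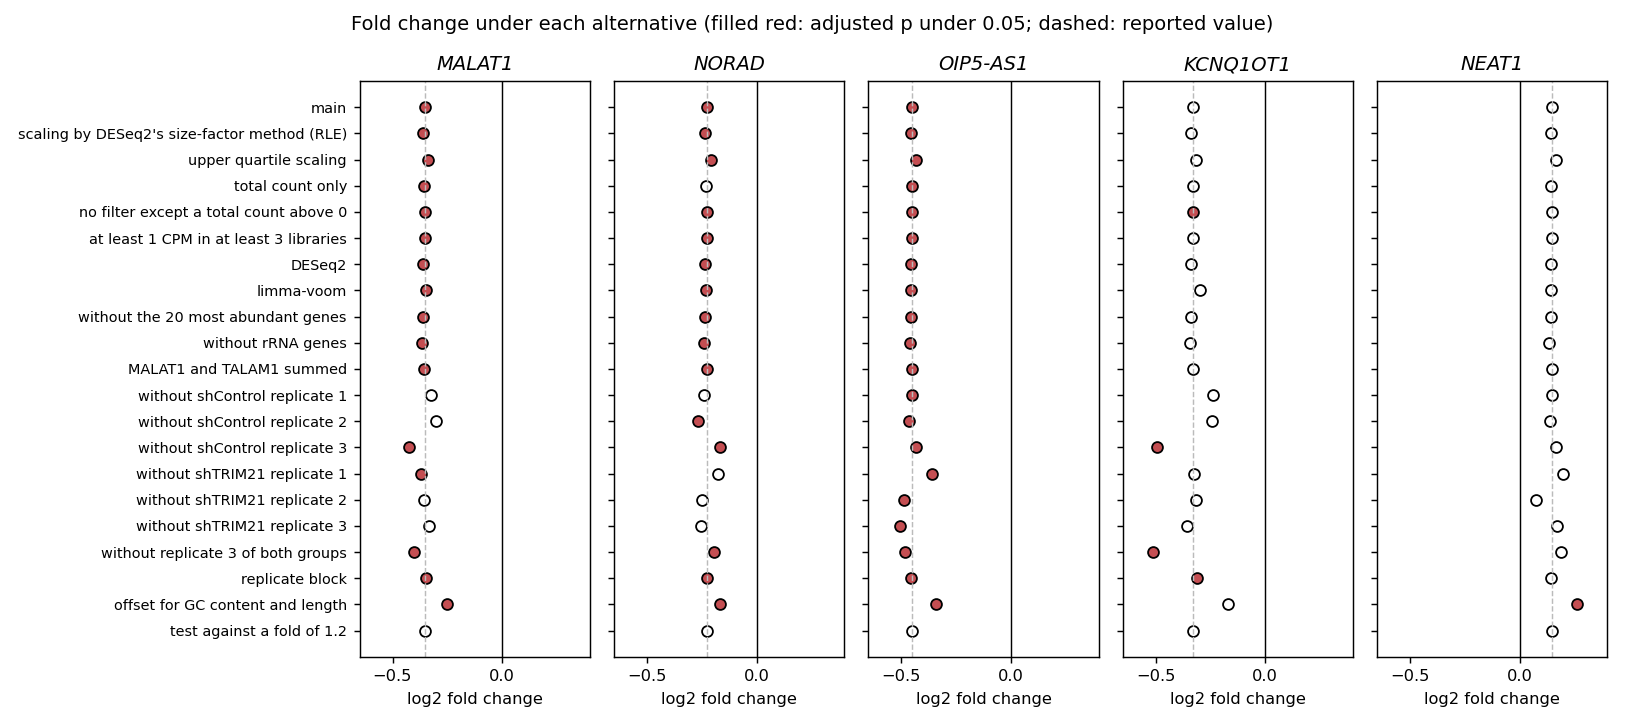
Log2 fold change of MALAT1, NORAD, OIP5-AS1, KCNQ1OT1 and NEAT1 (x axis) under each alternative way of processing. The reported value is a dashed line, and filled red points mark an adjusted p under 0.05. OIP5-AS1, MALAT1, NORAD and KCNQ1OT1 stay below 0 in every alternative shown, and NEAT1 stays above.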

How the data were processed

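The authors deposited 1 table of raw counts per gene symbol for each of the 6 libraries. Per the submitters' processing notes, the genome was hg38 and the tools were TopHat2 2.1.1, limma 3.52.2 and edgeR 3.38.1. How reads were counted, with which annotation and with which strand setting, is not given in the sources used here.

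Testing used edgeR 4.0.16 under R 4.3.3: filterByExpr left 14002 genes, scaling was by TMM, and the quasi-likelihood test compared the groups with no other term, adjusted by Benjamini-Hochberg over all genes at 0.05. The SE is the fold change divided by the square root of F. The script was tested on simulated data. Levels are CPM, and intervals are at 95%. Positions and lengths are from GENCODE release 29. The labels state no pairing by replicate number. Correlations of same-numbered deviations were 0.096, -0.012 and 0.091, where the best with another number were 0.048, 0.048 and 0.025. The same number gave the higher value for replicates 1 and 3 and not for replicate 2, so pairing is not settled.

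Members and lists were chosen with earlier results of these data known. The rule for naming covered all members, TRIM21, up to 4 called genes per list or the most abundant, overlapping genes and the 3 nearest genes per member with at least 5 CPM. Not every gene under this rule is given in the text. Alternatives were RLE, upper quartile and total count scaling, no filter or 1 CPM in 3 libraries, DESeq2 1.42.0, limma-voom (limma 3.58.1), leaving out the 20 most abundant genes, rRNA genes, each library or replicate 3 of both groups, summing MALAT1 and TALAM1, the replicate block, a GC and length offset, and a fold of 1.2. SFPQ, NONO, PSPC1 and ELAVL1 were named outside the rule after their values were seen.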

Additional observations from a re-analysis of the deposited data

How the results depend on the processing

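Each member was refitted under 20 alternatives, 19 for TALAM1, which has no GC value. Against a fold of 1.2 the 4 calls were lost with the estimates as reported (MALAT1 -0.35, TALAM1 -0.36, NORAD -0.23, OIP5-AS1 -0.45), leaving 0 members by edgeR, with 3 at an unadjusted p under 0.05. Scaling by total count lost NORAD (-0.23), and the calls of NUDT21 (adjusted p 0.0831), SRSF2 (0.0882), PUM2 (0.0559) and CCAT1 (0.0947) by edgeR. With no filter KCNQ1OT1 passed (-0.33), as it did without replicate 3 of both groups (-0.51). The GC and length offset brought NEAT1 past the threshold (0.26) and gave -0.17 for KCNQ1OT1, 0.08 for PVT1 and 0.03 for H19, with MALAT1 at -0.25, NORAD at -0.17 and OIP5-AS1 at -0.34. H19 turned to -0.29 without replicate 3 of both groups. Apart from the fits with fewer libraries, the cause was not tested.

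Leaving out 1 library gave 1 to 5 members called. The log2 fold changes ranged from -0.42 to -0.30 for MALAT1, -0.44 to -0.31 for TALAM1, -0.26 to -0.17 for NORAD, -0.51 to -0.36 for OIP5-AS1, -0.49 to -0.24 for KCNQ1OT1, 0.07 to 0.20 for NEAT1, 0.04 to 0.32 for PVT1 and -0.18 to 0.31 for H19. Over all genes these fits gave 602 to 1737 calls. Length by the union of exons moved OIP5-AS1 to 21.8 and PVT1 to 2.98 CPM per kb.

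With the replicate number as a block, 5 members passed, among them KCNQ1OT1 (-0.31, adjusted p 0.0387 by edgeR), and 1699 genes against 1272. Not every library correlated best with its own number. The block changed the call of no other member. At 72 to 142 counts a library, a change of the size seen in MALAT1 lies within the 95% interval of H19.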

Other observations

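The 7-base string AGTGGAA was picked earlier from these same fold changes, so its counts here are a description and support nothing. Searched on the transcript strand only, OIP5-AS1 held 3 copies, MALAT1 2, NORAD 1, NEAT1 1 and H19 0. At the length of OIP5-AS1, 67.1% of 769 windows from other tested genes held at least 1 copy and 14.6% held at least as many. Among tested genes with a longest transcript of 6000 to 12000 bases, members left out, those with 0 copies numbered 875, of which 6.17% fell and 2.97% rose. With 1 copy 10.1% of 736 fell and 4.21% rose, with 2 copies 15.99% of 344 fell and 2.91% rose, and with at least 3 copies 19.9% of 191 fell, and of these last genes 38 fell and 0 rose at an edgeR adjusted p of 0.05. The median log2 fold change was -0.04, -0.08, -0.09 and -0.12 in that order.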
